A study of Rattus norvegicus with 47 samples.

Results

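The C/D box snoRNAs described here are the rows of the small RNA tables that are annotated as snoRNA and carry a name beginning with SNORD. In kidney they were 57 of 812 small RNAs, and in urine 4 of 507. The number before the dot names the snoRNA and the number after it the gene copy, so SNORD14.1 and SNORD14.4 are copies of the family SNORD14. The 57 kidney rows fell into 28 families, of which 12 had a single row. Other rows of the class were left out by the rule: 255 of the 312 kidney snoRNA rows were not named SNORD, and 118 of those had no name. Among them, 9 rows in kidney and 8 in urine were named U3 or U8, which are C/D RNAs too.

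The samples came from male Wistar rats, an outbred stock with no genetic change, that had been fed for 10 weeks either a standard diet (SD) or a high-fat diet (HFD). Small RNA was sequenced from kidney tissue in 7 SD and 8 HFD rats and from urine, where the extract held cell-free and exosomal RNA, in 8 SD and 8 HFD rats. Kidney mRNA of 8 SD and 8 HFD rats was also measured. The age of the rats was not among the labels. Kidney tissue mixes many cell types, and in such bulk samples fewer cells of a type and less RNA per cell cannot be told apart. Lesions of single rats were not among the labels either, so no comparison by lesion was made.

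C/D box snoRNAs are short nuclear RNAs named after their conserved boxes C and D. Most of them base-pair with ribosomal RNA and direct its 2′-O-methylation by fibrillarin within a particle that also holds Nop56, Nop58 and Snu13, while a few act in cutting the ribosomal RNA precursor. In mammals most are released from introns of host genes, many of which encode ribosomal proteins.

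The libraries differed in depth. The reads recovered from the values were 3429473 to 10584069 per kidney library, 282241 to 2570715 per SD urine library and 963118 to 11932003 per HFD urine library. The kidney libraries also parted into 8 with a size factor below 1 (5 SD, 3 HFD) and 7 with a size factor above 1 (2 SD, 5 HFD), where the size factor is the scaling by which a library's reads had been divided. This split was read from the same tables and crossed the diets unevenly, so values are given within it wherever it moved with a result. In the kidney mRNA, the kidney marker Umod lay between 60580 and 116814 normalized counts in all 16 libraries, all 6 kidney markers were present, and the adipose markers varied widely, with Plin1 from 2.41 to 623.

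SNORD rows held 6.00% to 14.5% of the recovered reads of a kidney library. The 95% Wilson intervals were narrower than 0.1 percentage points in every one. All snoRNA rows together held 17.2% to 55.1% of the reads, and miRNA held 32.9% to 59.7%. Among the 15 libraries, 14 had reads for all 57 rows. HFD rat 1271 had none for SNORD16.1, and 0 reads allows up to 3, or 1.76 normalized counts in that library. The level was concentrated in few families. SNORD30 held 21.7% of the summed SNORD level, SNORD29 19.3% and SNORD58 18.9%. They were followed by SNORD21 with 7.07%, SNORD31 with 6.39%, SNORD18 with 5.18%, SNORD81 with 4.09%, SNORD36 with 3.26%, SNORD82 with 2.45% and SNORD24 with 1.70%. The other 18 families together held 9.98%. These shares count every row. With the near-identical copies on chromosome 3, counted once, SNORD36 held 1.67% and fell behind SNORD82, and SNORD24 held 1.02% and left the first 10 families, of which SNORD26 was then the last.

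Per length, SNORD30.1 had the highest mean level, at 240496 normalized counts per 100 nt of snoRNA over 15 libraries. SNORD29.3 followed at 228610 and SNORD58.1 at 197940 per 100 nt. The ranges of these 3 rows over the libraries overlapped, so their order is that of the means only. The lowest row, SNORD116.6, had 14.9 per 100 nt. The rows were 64 to 148 nt long (median 79).

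**Figure D1:**
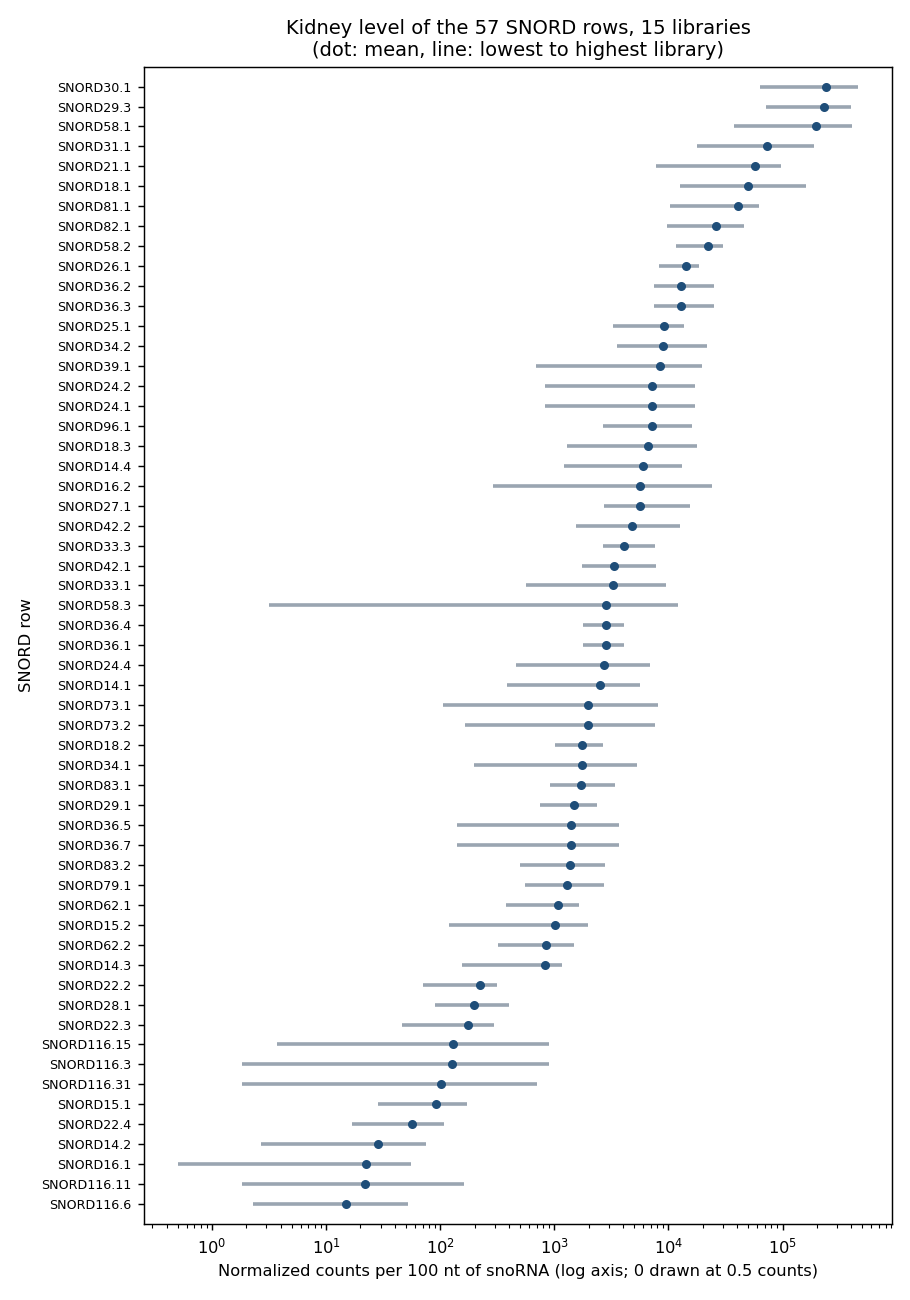
Normalized counts per 100 nt of snoRNA (log axis) for each of the 57 kidney SNORD rows, with the mean of 15 libraries as a dot and the lowest to highest library as a line. SNORD30.1, SNORD29.3 and SNORD58.1 have the highest means and SNORD116.6 the lowest.

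Rows that lie together in the genome differed widely in level. On chromosome 1 of Rnor6.0, 8 rows lie on the plus strand within chr1:224921637-224923957 (SNORD25.1, SNORD26.1, SNORD27.1, SNORD28.1, SNORD29.3, SNORD30.1, SNORD31.1 and SNORD22.2). In mammals this set of snoRNAs is encoded in introns of one non-coding host, Snhg1. RefSeq (assembly GRCr8) lists 4 of these names, Snord26, Snord27, Snord28b and Snord30, under the host LOC100912041. Their mean levels per 100 nt spanned 1209-fold, from 199 for SNORD28.1 to 240496 for SNORD30.1. The neighbours SNORD29.3 and SNORD31.1 were at 228610 and 73024 per 100 nt, while SNORD22.2, a row of 126 nt at the end of the cluster, was at 222.

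A second cluster lies within chr8:69123323-69125413. It holds SNORD18.1, SNORD16.2, SNORD18.2, SNORD16.1 and SNORD18.3, which are known as intronic RNAs of Rpl4. Mean levels per 100 nt spanned 2225-fold there, from 22.3 for SNORD16.1 to 49670 for SNORD18.1. The 2 copies of SNORD16, each 99 nt long, thus differed 253-fold.

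**Figure D2:**
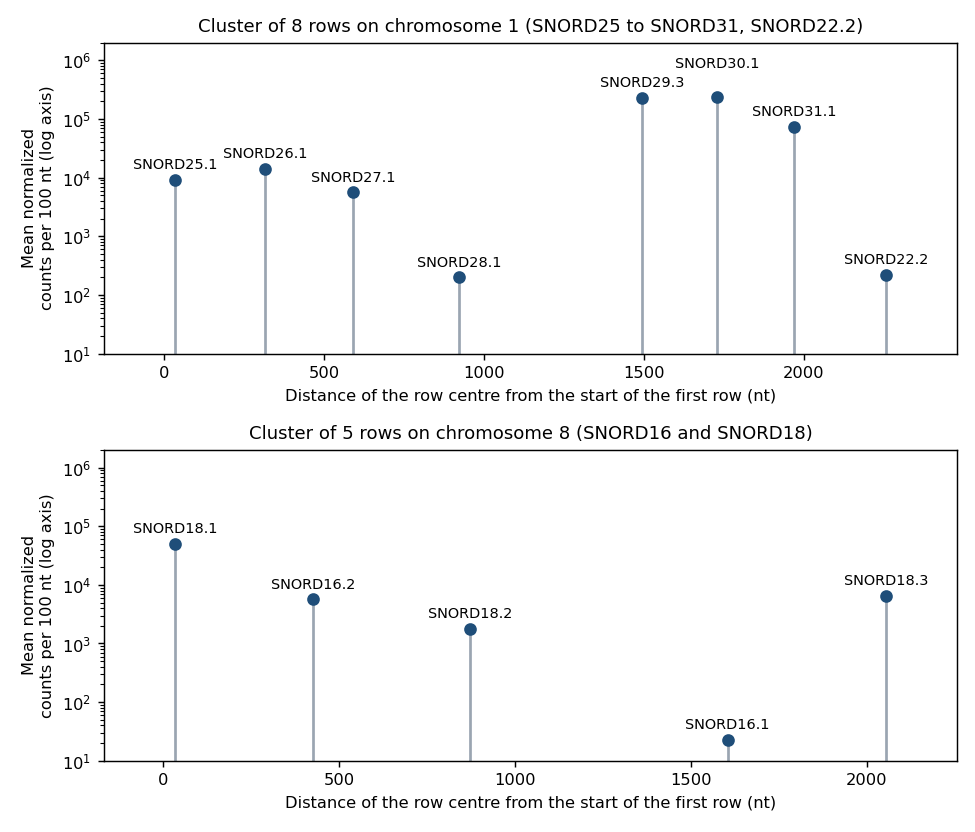
Mean kidney level per 100 nt (log axis, 15 libraries) against the distance of each row's centre from the start of the first row, for the cluster of 8 rows on chromosome 1 and the cluster of 5 rows on chromosome 8. Levels span 1209-fold in the first cluster and 2225-fold in the second.

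Copies of one snoRNA ranged from alike to very different in level. Of the 16 families with more than 1 row, 6 had copies whose mean levels per 100 nt differed 10-fold or more, and 5 (SNORD33, SNORD42, SNORD62, SNORD73 and SNORD83) had copies within 1.5-fold. SNORD16.2 carried 99.6% of the SNORD16 family level and SNORD29.3 carried 99.2% of SNORD29. SNORD15.2 carried 91.5% of SNORD15, SNORD58.1 carried 88.7% of SNORD58 and SNORD18.1 carried 85.1% of SNORD18. In SNORD14, whose RNA acts in the maturation of 18S ribosomal RNA (known from yeast), SNORD14.4 carried 64.2%. Its copies SNORD14.1, SNORD14.4 and SNORD14.3 lie within chr8:44991645-44992879. RefSeq gives Hspa8 as the host of the SNORD14 family, a match by family name and not by position. SNORD14.2, on chromosome 1, had 28.3 normalized counts per 100 nt against 5929 for SNORD14.4.

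On chromosome 3, SNORD24.2, SNORD36.4, SNORD36.2 and SNORD36.5 are each repeated 591927 bases further on as SNORD24.1, SNORD36.1, SNORD36.3 and SNORD36.7. The reads of the paired rows differed by at most 6 in any library. The reads of such a pair cannot be told apart, so the paired rows are not independent. Counts are given with all rows, and some of them also with each pair counted once. The other counts hold both rows of such pairs. The mean of the SNORD36 family was 24937 normalized counts with all 6 rows and 12470 with such copies counted once, and that of SNORD24 was 13056 and 7644.

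SNORD58.3 stood out among all rows by its spread between rats. It lies within the SNORD58 cluster at chr18:70970450-70971341, between SNORD58.2 and SNORD58.1, and RefSeq names Rpl17 as the host. In 6 rats (SD 1247 and 1248, HFD 1252, 1256, 1259 and 1267) SNORD58.3 lay between 2.07 and 15.1 normalized counts. In the other 9 rats it lay between 1425 and 7959. No library fell between, and the step across this gap was 88.6-fold on the scale of normalized count plus 1. The low and high rats included both diets and both kinds of kidney library. Its neighbours had no such gap: SNORD58.2 ranged from 7694 to 20035 and SNORD58.1 from 24631 to 261561 over the same 15 libraries. Of all 57 rows, 8 had a step of 4-fold or more between libraries that were neighbours in order of level. The near-identical pair SNORD36.5 and SNORD36.7 is among the 8.

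SNORD116 belongs to the imprinted Prader-Willi region and is known mainly from neurons. Its 5 rows summed to 13.7 to 2496 normalized counts per kidney library, with a median of 190. SD rat 1251 was the highest and HFD rat 1252 followed at 800, while SD rats 1248 and 1247 were the lowest at 13.7 and 23.7. Among the neuron markers in the kidney mRNA, Syt1 ranged from 10.1 to 48.2 normalized counts and Rbfox3 from 0 to 8.47, and Snap25 and Stmn2 were not matched by symbol. The other listed imprinted families were not among the rows.

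The first comparison asked whether the SNORD level of the kidney differed by diet. No SNORD row was called. Differences are given as log2FC, the log2 fold change of HFD over SD rats on the scale of normalized count plus 1, with its standard error (SE). A call in kidney needed a limma p of less than 0.05 after Benjamini-Hochberg adjustment over the whole table, and a log2FC of more than 1 in size. The background was the same, as 0 of all 812 small RNAs were called (0%). At an unadjusted p under 0.05, limma listed 10 of the 57 rows (17.5%), beside 13.2% of all small RNAs. Of these rows, 7 were higher in HFD rats (12.3% of the 57, beside 6.4% of all) and 3 lower (5.26%, beside 6.77%). The 7 include both SNORD36.5 and SNORD36.7, a near-identical pair. With such copies counted once, 9 of 53 rows (17%) were listed beside 13.1% of all, 6 of them higher (11.3%, beside 6.31%) and 3 lower (5.66%, beside 6.81%). With edgeR and DESeq2 on the recovered reads, 15 and 14 rows were at an unadjusted p under 0.05 and again none was called, beside 17.4% and 16.5% of the table. The lowest adjusted p of any SNORD row from limma was 0.338. The median log2FC was -0.05 over the SNORD rows and -0.01 over all small RNAs, and 25 of the 57 rows were above 0 (43.9%, against 49.5% of the table). With near-identical copies counted once, 23 of 53 rows were above 0 (43.4%). The diet groups overlapped in all 57 rows, and 0% of the table had groups that did not overlap. After summing the copies, none of the 28 families was called, against 0% of 783 features, and 4 families (SNORD16, SNORD34, SNORD14 and SNORD24) had an unadjusted p under 0.05, against 12.9%.

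SNORD16.2 had the smallest p. In the 7 SD rats its lowest value was 2908 normalized counts, the median 6994 and the highest 23889. In the 8 HFD rats the lowest was 286, the median 1762 and the highest 6443. The HFD rats 1271 and 1275 were below every other library, and SD rat 1251 was above all, but the groups overlapped. The log2FC was -2.31 (SE 0.62, unadjusted p = 0.00174, adjusted p = 0.338 from limma). Among the libraries with a size factor below 1 it was -0.85 (5 SD, 3 HFD), and among those above 1 it was -3.68 (2 SD, 5 HFD). The difference between these values was not tested. The paper's own DESeq2 comparison lists SNORD16.2 as lower in HFD kidneys, within its adjusted p limit. The mRNA of Rpl4, which carries the SNORD16 and SNORD18 introns, was 15533 ± 2758 normalized counts in SD and 15598 ± 2942 in HFD rats (standard deviation, n = 8 each), a log2FC of 0.00.

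SNORD33.1 and SNORD34.2 lie at chr1:101121383-101122255 on the minus strand. SNORD33 and SNORD34 belong to the Rpl13a introns, from which the RNAs U32a, U33 and U35a have been tied to lipotoxic stress in cultured rodent cells. In SD rats SNORD33.1 ranged from 478 to 601 normalized counts in 6 rats, with a median over all 7 of 491, and reached 5174 in rat 1251. In HFD rats it ranged from 670 to 823 in the 3 libraries with a size factor below 1 and from 4872 to 8086 in the 5 above 1. The high libraries were thus 5 of 8 in HFD and 1 of 7 in SD, and every one of them had a size factor above 1. The log2FC of SNORD33.1 was 1.95 (SE 0.68, unadjusted p = 0.0104, adjusted p = 0.338 from limma). It was 0.53 within the libraries below 1 and 1.93 within those above 1. The latter set 2 SD rats, 1250 at 489 and 1251 at 5174 normalized counts, against 5 HFD rats. The neighbouring copy SNORD33.3 did not show the low and high levels of SNORD33.1 and ranged from 2226 to 6285 over all libraries. SNORD34.2 ranged from 2386 to 9749 in SD rats and from 2841 to 14644 in HFD rats, with medians of 2914 and 8747, and its log2FC was 1.00 (SE 0.42, unadjusted p = 0.0279, adjusted p = 0.338 from limma). The host mRNA Rpl13a had a log2FC of -0.20 (SE 0.20, adjusted p = 0.918). Of the 4 measured rows of the Rpl13a list, 3 were above 0, none was called and the median log2FC was 0.61, beside -0.01 over all small RNAs. The row below 0 was SNORD34.1 (log2FC -0.64), which lies on chromosome 8 and not in this stretch of chromosome 1. SNORD32 and SNORD35 were not among the rows.

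The other rows with the smallest p had the same arrangement of libraries. SNORD24.4 lies with SNORD79.1 and SNORD81.1 at chr13:78853437-78855688. Its median was 520 normalized counts in SD rats (381 to 4219) and 3275 in HFD rats (789 to 5599). SNORD36.7, the near-identical copy of SNORD36.5, had a median of 117 in SD rats (97.6 to 1997) and 1909 in HFD rats (107 to 2560). SNORD18.3 had medians of 2573 (919 to 6585) and 6686 (2234 to 12532). SNORD42.2, of the Rpl23a introns, had medians of 1218 (998 to 4102) and 5175 (997 to 8242). In each of these 4 rows SD rat 1251 stood with the 5 HFD rats whose size factor was above 1, and the 3 other HFD rats stood with or near the other SD rats. The log2FCs were 1.54 for SNORD24.4, 2.05 for SNORD36.7, 1.08 for SNORD18.3 and 1.20 for SNORD42.2, with an adjusted p of 0.338 for each (limma).

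SNORD14.4 and SNORD14.1 lay on the other side. SNORD14.4 ranged from 2843 to 11225 normalized counts in SD rats with a median of 7271, and from 1044 to 6059 in HFD rats with a median of 2841. SNORD14.1 ranged from 1096 to 4739 in SD rats with a median of 2983, and from 327 to 2988 in HFD rats with a median of 870. The groups overlapped in both rows. The log2FCs were -1.01 and -1.17 (SEs 0.43 and 0.51, adjusted p = 0.338 for each from limma). With the size factor above or below 1 as a covariate they were -0.54 and -0.54. The host mRNA Hspa8, which encodes a constitutive heat shock chaperone, was at 3436 ± 1184 normalized counts in SD and 5033 ± 1435 in HFD rats (standard deviation, n = 8 each). Its log2FC was 0.58 (SE 0.21, unadjusted p = 0.0134, adjusted p = 0.918 from limma).

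**Figure D3:**
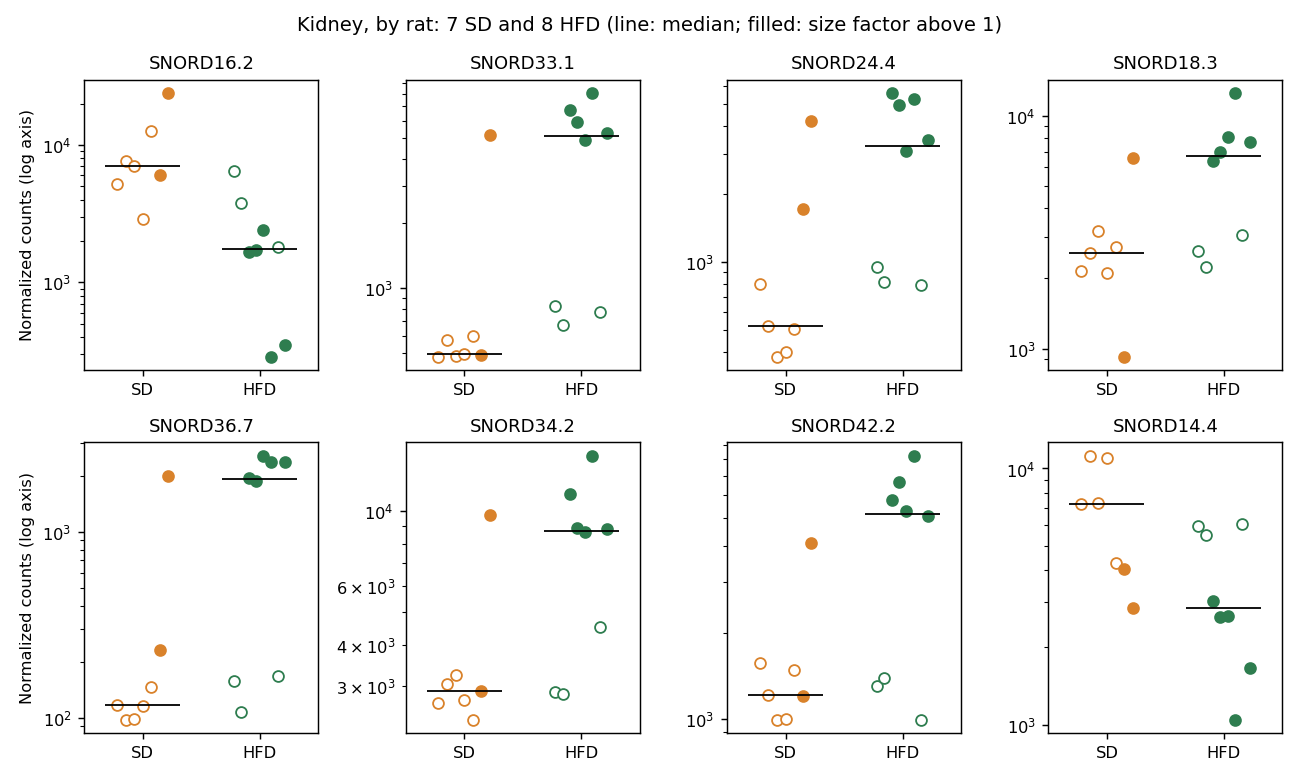
Kidney normalized counts (log axis) of 8 SNORD rows in each of 7 SD and 8 HFD rats, with the median as a line and libraries with a size factor above 1 as filled circles. In SNORD33.1 the 5 filled HFD circles lie between 4872 and 8086 and the 3 open ones between 670 and 823.

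The kidney libraries above and below a size factor of 1 differed across many rows. The median over the 7 libraries above 1 was at least 2-fold that over the 8 below 1 in 18 of the 57 rows (31.6%, beside 32.4% of all small RNAs) and at most 0.5-fold in another 18 (31.6%, beside 30% of all). In 21 rows the 2 kinds of library did not overlap (36.8%, beside 32.5% of all). These shares were near those of the whole table, so the split was not particular to SNORD rows. They count near-identical copies singly. The pair SNORD36.5 and SNORD36.7 is among the 18 higher rows and among the 21. SNORD24.1 and SNORD24.2 are both among the 18 higher rows, and SNORD36.2 and SNORD36.3 both among the 21. SNORD73.1, of the Rps3a introns, was 24.7-fold higher in the libraries above 1, and SNORD39.1 was at 0.0952-fold. The highest family, SNORD30, had 43793 to 95722 normalized counts in the libraries above 1 and 146748 to 319075 in those below. The size factor is computed from the same small RNAs, so these values describe the libraries and are no test. With the size factor above or below 1 as a covariate, 5 rows had an unadjusted p under 0.05 (10.2% of all small RNAs did) and none was called. Within the libraries below 1 alone there were 2 such SNORD rows, beside 3.54% of all small RNAs. Within those above 1 alone there were 14, beside 16.6% of all small RNAs. The count in the comparison of all libraries, 10, also moved with single rats. It was 24 without SD rat 1251, 22 without HFD rat 1252, 19 without HFD rat 1255 and 18 without HFD rat 1274. It was 3 without HFD rat 1271, 5 without any one of SD rats 1247 and 1248 and HFD rats 1256 and 1275, and 6 without any one of SD rat 1245 and HFD rats 1259 and 1267. The count over all small RNAs moved in the same direction. With all libraries it was 107 of 812, and without SD rat 1251 it was 260 of 811. Without HFD rats 1252 and 1255 it was 194 and 196 of 812. Without SD rats 1245, 1247 and 1248 it was 67, 64 and 78 of 812. The count of families, 4, was 15 without SD rat 1251, 13 without HFD rat 1252, 10 without HFD rat 1255 or 1274, 1 without HFD rat 1271 and 2 without any one of SD rats 1245, 1247, 1248 and 1249 and HFD rats 1256 and 1275. The shares over all features in these family fits are not given here. None of these fits called a row or a family.

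**Figure D4:**
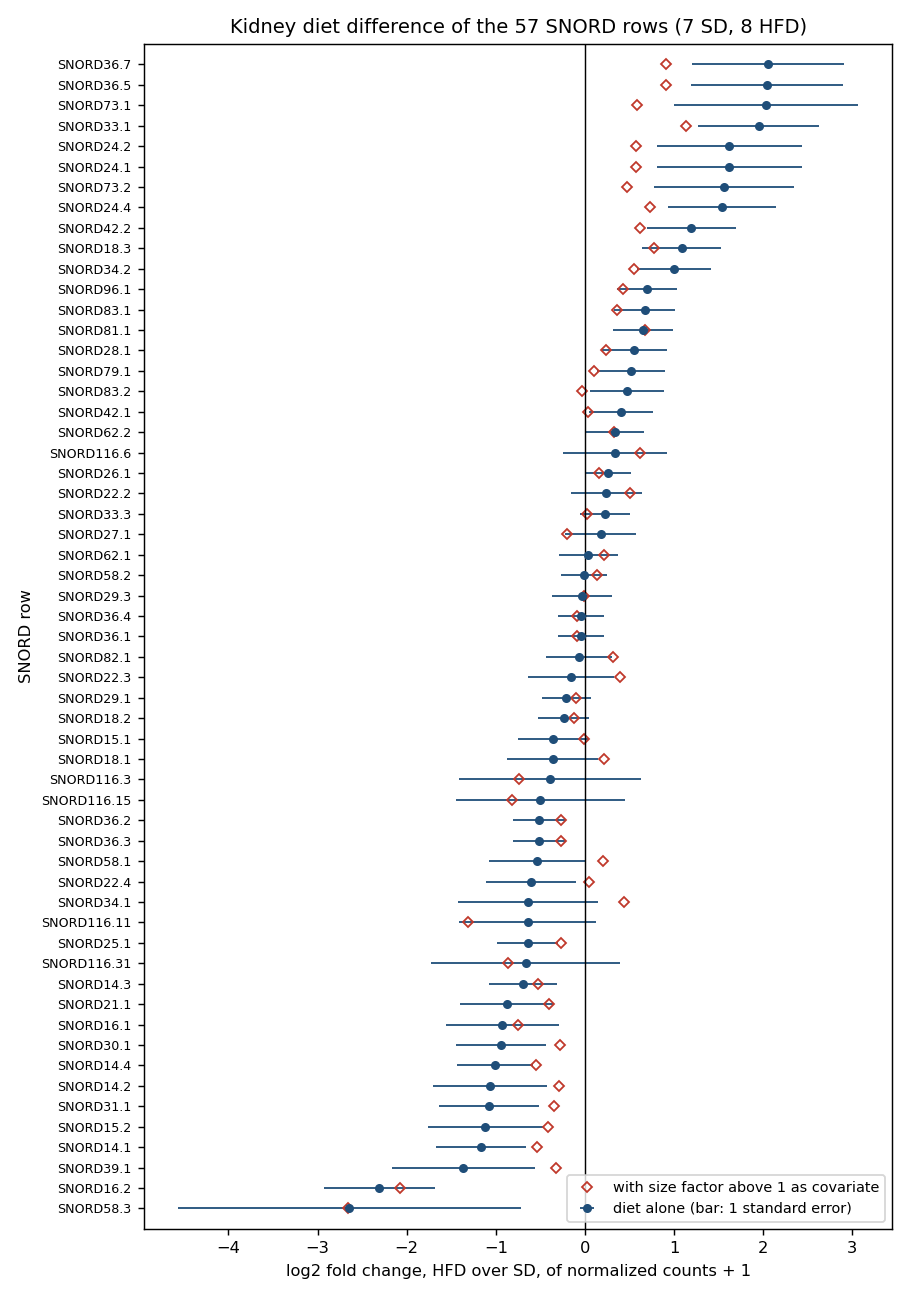
The log2FC of each of the 57 kidney SNORD rows, HFD over SD, with 1 SE (7 SD and 8 HFD libraries), beside the value with the size factor above or below 1 as a covariate (open diamonds). No row was called, and 42 of the 57 values are nearer 0 with the covariate: SNORD36.7 went from 2.05 to 0.91, while SNORD16.2 stayed near -2.

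By function, the lists were small. The pre-rRNA processing list gave 7 rows (SNORD14 and SNORD22), of which 1 was above 0, 2 had an unadjusted p under 0.05 and were lower, and the median log2FC was -0.70. The set of the chromosome 1 cluster and its copies (SNORD22 and SNORD25 to SNORD31) gave 11 rows, none with an unadjusted p under 0.05, and a median of -0.16. SNORD30.1, SNORD31.1 and SNORD29.3 in it had log2FCs of -0.94, -1.08 and -0.03, and none was called. The families listed for Rpl4 and Rpl7a introns (SNORD16, SNORD18, SNORD24 and SNORD36) gave 14 rows, with 4 higher and 1 lower at that p and a median of -0.05. One of the 4 was SNORD24.4, which lies on chromosome 13 beside SNORD79.1 and SNORD81.1, and SNORD36.5 and SNORD36.7 are a near-identical pair. Over the 9 rows on chromosomes 3 and 8 with such copies counted once, 2 were higher and 1 lower and the median was -0.24. The Gas5 families SNORD79 and SNORD81 had log2FCs of 0.52 and 0.65. The 5 SNORD116 rows had a median of -0.50. SNORD96, a common normalizer in qPCR and the only one of its list among the rows, had 4371 ± 2267 normalized counts in SD and 6915 ± 2894 in HFD rats (standard deviation, n = 7 and n = 8). Its log2FC was 0.70 (SE 0.34, adjusted p = 0.339 from limma by family). SNORD60, listed for its role in cholesterol trafficking, was not among the rows. Beside these lists, the median over all small RNAs was -0.01, 49.5% were above 0, and 6.4% were higher and 6.77% lower at an unadjusted p under 0.05.

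The share of reads does not depend on the scaling between libraries. SNORD rows held 11.7% ± 2.68 of the kidney reads in SD rats (standard deviation, n = 7) and 10.5% ± 1.42 in HFD rats (n = 8). The difference of the means was -1.18 percentage points (p = 0.305, two-sided exact permutation test, 6435 splits). SD rat 1250 was the lowest at 6.00%, with the next SD rat at 11.7%. Without it the difference was -2.12 percentage points (exact permutation test, p = 0.011). As a share of the snoRNA, scaRNA and snRNA reads alone, SNORD rows held 27.3% ± 3.83 and 23.1% ± 2.27 (exact permutation test, p = 0.0152). That share was 21.6% to 29.2% in 5 SD rats and 24.9% to 26.3% in 3 HFD rats with a size factor below 1. Above 1 it was 25.9% and 34.3% in 2 SD rats and 20.3% to 23.8% in 5 HFD rats. The difference within each kind of library was not tested. Within the libraries with a size factor below 1 the share of all reads was 11.7% to 14.5% in 5 SD rats and 9.62% to 13.2% in 3 HFD rats, and within those above 1 it was 6.00% and 12.1% in 2 SD rats and 9.19% to 11.7% in 5 HFD rats.

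The genes that make and carry the particle did not differ by diet in the kidney mRNA beyond the threshold. Of 63 listed genes, 52 were measured, and none was called (0% of 13673 genes were). An unadjusted p under 0.05 was found for Hspa8 (above) and for Ddx39b, a helicase gene named by RefSeq as a SNORD83 host, whose log2FC was -0.29 (SE 0.12, unadjusted p = 0.0323, limma), beside 4.34% of all genes. The methyltransferase fibrillarin, Fbl, had 1013 ± 273 normalized counts in SD and 916 ± 157 in HFD rats (standard deviation, n = 8 each), a log2FC of -0.11. The other core proteins Nop58, Nop56 and Snu13 were at 0.15, 0.01 and -0.08. Of the 8 assembly factors, Nolc1 had 0.21 and Pih1d1 -0.28, with adjusted p = 0.918 for each from limma. None of the 8 non-coding hosts was matched by symbol, so the hosts of the chromosome 1 cluster and of SNORD81 were not compared.

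In urine, SNORD RNA was scarce, and SNORD14 made up 94.3% of the SNORD reads summed over the 16 libraries. It held 90% or more in the 8 SD rats and in HFD rats 1252, 1255 and 1274, between 51.0% and 80.4% in HFD rats 1256, 1259, 1267 and 1271, and none in HFD rat 1275, whose only SNORD read was SNORD30.1. The 4 rows were SNORD14.4, SNORD14.1, SNORD30.1 and SNORD39.1. They held between 0.000104% and 0.0242% of the recovered reads of a library, against 6.00% to 14.5% in kidney. SNORD14.4 had 0 to 267 reads per library (median 47) and SNORD14.1 had 0 to 264 (median 44). SNORD30.1, the highest row of the kidney, had 0 to 16 reads (median 2.5), and SNORD39.1 had 0 to 11 (median 2.5). The order of the families was thus not that of the kidney, where SNORD14 held 1.04% of the SNORD level and ranked 12 among the families, or 11 with near-identical copies counted once.

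The 2 copies of SNORD14 were counted nearly alike in urine. Their reads differed by at most 8 in any library, and the ratio of SNORD14.4 to SNORD14.1 had a median of 1.04 (0.786 to 2 in the 15 libraries with reads). In kidney the ratio had a median of 2.44 and ranged from 2.03 to 3.69 over 15 libraries, and the urine ratio lay below the lowest kidney ratio in all 15 libraries. Whether reads that match both copies were counted for each is not stated in the sources used here, so the 2 urine rows may hold the same reads and are not independent.

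The urine comparison by diet called both SNORD14 rows, lower in HFD rats, and neither of the others. The threshold was an adjusted p of less than 0.1 and a log2FC of more than 1 in size, which 14.6% of the 500 small RNAs tested passed (3% in the lower direction). At an unadjusted p under 0.05 the same 2 of 4 rows were listed, both lower, beside 23.4% of the table (16% higher and 7.4% lower), and 2 of 4 rows had a log2FC above 0, beside 53.2%. SNORD14.4 had 15.9 normalized counts in SD rat 1244, 60.8 in 1245, 73.8 in 1246, 71.6 in 1247, 19.7 in 1248, 67.5 in 1249, 115 in 1250 and 267 in 1251. In HFD rats it had 25.1 in rat 1252, 64.7 in 1255, 3.51 in 1256, 3.92 in 1259, 2.24 in 1267, 3.21 in 1271, 62.9 in 1274 and 0 in 1275. The HFD rats therefore lay at 2 levels: 3 of them were within the range of the SD rats and 5 were below every SD rat. The lower edge of the SD range rests on few reads, with 6 in rat 1244 and 9 in rat 1248. HFD rats 1256, 1259, 1267 and 1271 had 22, 14, 8 and 20 reads, in deeper libraries. For rat 1275, 0 of 963118 reads allows up to 3 reads, or 11.3 normalized counts. That bound is below the lowest SD rat for SNORD14.4, at 15.9. It is above the lowest SD rat for SNORD14.1, at 7.94, so for that row the place of rat 1275 is limited by depth.

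The log2FC of SNORD14.4 was -2.86 (SE 0.74, adjusted p = 0.0133 from limma), with means of 86.5 ± 79.6 and 20.7 ± 27.7 normalized counts (standard deviation, n = 8 each). SNORD14.1 had 7.94 to 264 normalized counts in SD rats (median 67.0) and 0 to 64.0 in HFD rats (median 3.77). Its log2FC was -2.73 (SE 0.75, adjusted p = 0.0179). Read together as the SNORD14 family, the log2FC was -3.01 (SE 0.77, adjusted p = 0.0123). SNORD30.1 (0 to 5.005 in SD and 0.481 to 5.19 in HFD rats) and SNORD39.1 (0 to 3.94 and 0 to 3.08) had log2FCs of 0.35 and 0.37 with adjusted p = 0.701 and 0.657. Each of these rows had a median of 2.5 reads per library, and the size of difference that such counts could show was not tested. The median log2FC over the 4 rows was -1.19, beside 0.06 over all small RNAs of the table. edgeR and DESeq2 on the recovered reads gave SNORD14.4 adjusted p-values of 0.0797 and 0.0245 and also called both rows.

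The 5 low HFD rats (1256, 1259, 1267, 1271 and 1275) were the HFD rats whose kidney small RNA libraries had a size factor above 1. Among the rats with a kidney size factor below 1, SNORD14.4 in urine was 15.9 to 71.6 in 5 SD rats and 25.1 to 64.7 in 3 HFD rats, and no SNORD row was called (log2FC 0.25, SE 0.92, adjusted p = 0.878 from limma). Among those above 1, it was 115 and 267 in 2 SD rats and 0 to 3.92 in 5 HFD rats, and both rows were called (log2FC of SNORD14.4 -5.82, adjusted p = 0.000559). With the kidney size factor of the same rat as a covariate over 15 rats, both rows were still called (-2.38 and -2.27, adjusted p = 0.0699 and 0.096). These fits were chosen after the data were seen, and the part of the kidney split in the urine result was not tested.

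**Figure D5:**
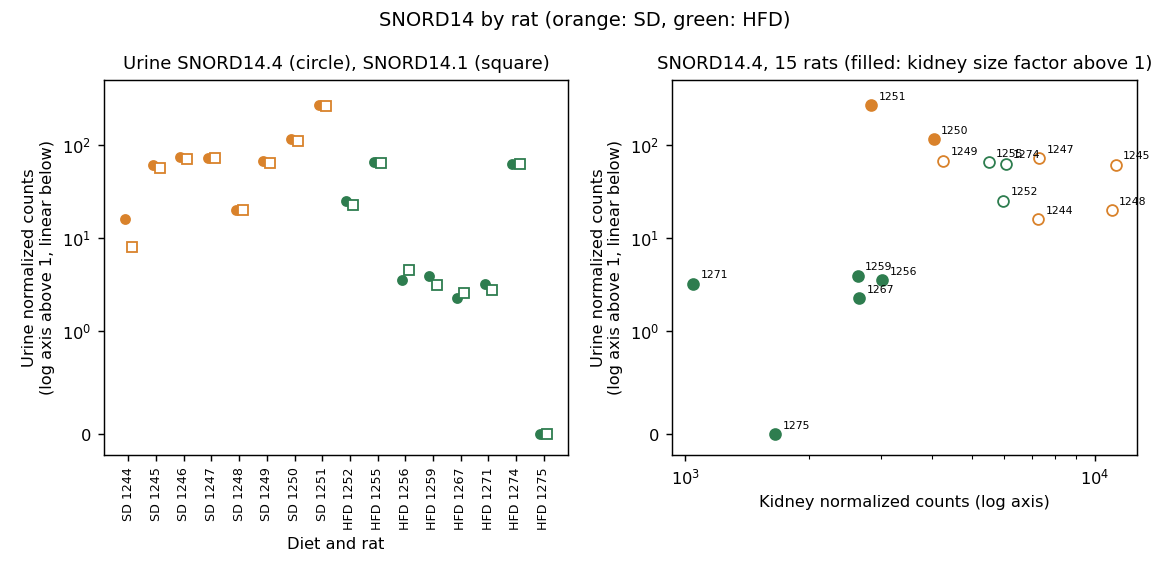
Left, urine normalized counts of SNORD14.4 (circles) and SNORD14.1 (squares) in each of 8 SD and 8 HFD rats; right, urine against kidney normalized counts of SNORD14.4 in the 15 rats with both, filled where the kidney library had a size factor above 1 (axes are logarithmic, linear below 1 for urine). In 5 HFD rats SNORD14.4 lies between 0 and 3.92, and in the other 3 between 25.1 and 64.7.

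As a share of all recovered reads, SNORD rows held 0.0107% ± 0.00796 of the urine reads in SD rats and 0.00182% ± 0.00186 in HFD rats (standard deviation, n = 8 each). The groups overlapped, with 0.0024% to 0.0242% in SD and 0.000104% to 0.00499% in HFD rats. The difference of the means had p = 0.00218 (two-sided exact permutation test, 12870 splits). Within the rats with a kidney size factor below 1 the difference was -0.00451 percentage points (exact permutation test, p = 0.446), and within those above 1 it was -0.0176 (exact permutation test over 21 splits, p = 0.0476, the smallest this design allows). The lowest share, of HFD rat 1275, rests on 1 read, with a 95% Wilson interval from 1.8e-05% to 0.000588%. Reads without molecular identifiers are not independent molecules, so such intervals cover counting error only.

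The last comparison set the SNORD share of the kidney beside that of the urine of the same rat. Over the 15 rats with both, Pearson's r was 0.108 (permutation p = 0.691, adjusted over 4 relations 0.752) and Spearman's rho was 0.396 (permutation p = 0.146, adjusted 0.195). Without the 2 rats farthest from the median kidney share (SD 1248 and 1250), r was 0.5 (permutation p = 0.0838) and rho 0.747 (permutation p = 0.00465, adjusted 0.0186). Within SD rats r was -0.177 (n = 7, exact permutation p = 0.752) and rho -0.179 (exact permutation p = 0.713). Within HFD rats r was 0.370 (n = 8, exact permutation p = 0.368) and rho 0.619 (exact permutation p = 0.115, adjusted 0.195). The relation thus depended on the rats included and passed the threshold within neither diet.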

How the data were processed

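The deposited signal is the authors' normalized count per row and library. Cutadapt (trimming), Salmon (mRNA), Subread (small RNA) and DESeq2 1.24.0 are named as the authors' tools, with the genome Rnor6.0. Columns of the authors' own comparison, with fold changes and p-values, were not used. Each small RNA value is a whole multiple of a step of its library, within 0.01 reads for 100% of values, which gave the reads of 31 libraries; no step was found for mRNA.

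Groups were compared with limma 3.58.1 (trended variance, R 4.3.3) on log2 of the normalized count plus 1, HFD against SD, after leaving out means under 5 (kidney, mRNA) or 1 (urine). Benjamini-Hochberg adjustment ran over the whole table. edgeR 4.0.16 and DESeq2 1.42.0 on the recovered reads, pseudocounts of 0.5 and 5, other filters and scalings, a size factor covariate and leaving out each rat were alternatives. Replicates are separate rats, each with 1 library per sample type. Families are summed copies. File coordinates are Rnor6.0. Host names come from RefSeq (GRCr8) and were matched by family name, not by the position of a row. Fits were tested on simulated data. The rows named in the text were the 10 highest families, those called or with the 10 smallest p, SNORD14, SNORD16 and up to 4 per list; genes were named likewise, and SNORD58.3, SNORD73.1 and SNORD39.1 after their values were seen. The members and lists were chosen with earlier results of these data known.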

Additional observations from a re-analysis of the deposited data

Results flagged for a closer look

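Values far from the rest of their group were looked for in 32 groups of 7 or 8 values, with Dixon's criterion. By chance alone it picks out about 1 group in 20 if values are normally distributed. The values were taken untransformed, the kidney rows were those with the smallest p by diet, and some rows hold nearly the same reads. The number found can therefore not be set against that rate. The criterion picked out 10 values, of which 9 were of SD rat 1251. In kidney, rat 1251 stood above the other SD rats in SNORD33.1 (5174 normalized counts, the next SD rat at 601), SNORD36.7 and SNORD36.5 (1997 in each, next 230), SNORD34.2 (9749, next 3245), SNORD42.2 (4102, next 1571), SNORD24.4 (4219, next 1713) and SNORD18.3 (6585, next 3204). Its kidney library had a size factor above 1. In urine the same rat had the highest SNORD14.4 and SNORD14.1 of the SD group, at 267 and 264 normalized counts, with the next rat at 115 and 109. The tenth was the kidney SNORD share of SD rat 1250, at 6.00% with the next SD rat at 11.7%. In the kidney library of rat 1250 miRNA held 59.7% of the reads, against 32.9% to 47.5% in the other SD kidney libraries.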

How the results depend on the processing

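No SNORD row or family of the kidney was called under any of the 13 alternatives or in the 15 fits that left out a rat. No listed mRNA was called in any alternative. The kidney median log2 fold change ran from -0.20 to 0.04 without single rats. It stayed within the spread between libraries but turned positive with equal totals (0.19, where the median of all small RNAs was 0.23), TMM factors (0.05), equal miRNA totals (0.06), the size factor covariate (0.03) and size factors above 1 alone (0.29). SNORD42.2 was at -0.0139 within size factors below 1. The kidney share difference ran from -2.12 to -0.70 percentage points without single rats. It was -4.17 percentage points as a share of snoRNA, scaRNA and snRNA reads (exact permutation test, p = 0.0152), which was not tested within either kind of kidney library. No SNORD rows held exactly identical values. With near-identical copies counted once, 9 of 53 kidney rows were at an unadjusted p under 0.05, against 10 of 57.

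In urine both SNORD14 rows and the family were called under each alternative and in every fit without a rat, where SNORD14.4 ran from -3.27 to -2.41, except within the rats with a kidney size factor below 1. In that fit, chosen after seeing the data, 0 rows and 0 families were called, SNORD14.4 and SNORD14.1 were at 0.25 and 0.41, the share difference was -0.00451 percentage points, and the median of the 4 rows was 0.68, against -2.98 within those above 1. That median was -2.79 with means of at least 20 and ran from -1.46 to -1.01 without single rats, and the share difference ran from -0.0101 to -0.00701. SNORD30.1 turned to -0.0208 with equal totals, -0.69 with equal miRNA totals, -0.0404 without libraries under 1000000 reads and -0.19 within kidney size factors above 1, and SNORD39.1 to -0.54 with equal miRNA totals and -0.56 with the covariate. Equal miRNA totals moved the median of all urine small RNAs to -1.19, and all urine calls numbered 73, against 218 with that scaling (8 higher and 210 lower), 53 with equal totals (28 and 25), 66 with edgeR (41 and 25), 92 with DESeq2 (63 and 29), 39 with means of at least 20, 19 with the covariate and 14 without shallow libraries. The cause was not tested. The correlation between kidney and urine shares was -0.18 within SD rats. No paired analysis was possible because SD and HFD rats share no rat number. Urine SNORD30.1 and SNORD39.1 rest on few reads.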
